A study of Mus musculus with 6 samples.

Results

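Integrin αvβ8 and the genes that make, receive and restrain the transforming growth factor β (TGF-β) signal were followed in activated group 2 innate lymphoid cells (aILC2s). ILC2s are lymphocytes without rearranged antigen receptors that respond to the alarmin IL-33, and those used here came from the lung. Of 10 genes named in advance (Itgb8, Itgav, Tgfb1, Tgfbr1, Tgfbr2, Tgfbr3, Smad3, Smad7, Ski and Skil), 9 were rows of the table of 15212 genes, and Tgfbr3 was not analysed here. They were chosen by the known log2 difference of Itgb8 between the genotypes and by their place around it in the pathway. Their levels and differences between genotypes are therefore a description and carry no test. Where a gene of the axis is placed against a threshold, its position in the fit over all genes is meant, not a result.

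Bulk RNA-Seq libraries were made from ILC2s sorted from the lungs of WT BALB/c mice (n = 3) and of VISTA KO mice (Vsir-/-, n = 3), which lack the immune checkpoint VISTA in all cells from the germline. Every mouse had 3 days of intranasal rmIL-33 at 0.5 µg and was used on day 4, so no library shows ILC2s at rest. The mutant allele came from a B6N.129S5 stock, and the study puts all of its mice on a BALB/c background, sex-matched and aged 5 to 8 weeks. Nothing in the labels says whether the libraries of a genotype came from separate mice, so every p-value measures the spread between these libraries, which may be technical. Replicates 1 and 2 of each genotype carry a common label number, to which the label of replicate 2 adds P1, without a stated meaning. The labels speak of both freshly isolated and cultured cells.

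TGF-β is secreted in a latent form, in which a propeptide holds the mature cytokine inactive. Integrin αvβ8, the product of Itgav and Itgb8, binds the propeptide and releases the signal. The freed ligand brings together the receptors TGFBR2 and TGFBR1, which phosphorylate SMAD2 and SMAD3. These bind SMAD4 and enter the nucleus, where SKI and SKIL hold their target genes in check, and SMAD7 acts as a feedback inhibitor at the receptor. In lymphocytes TGF-β is known for restraining effector functions and for inducing molecules of tissue residence.

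The libraries held 15680871 to 29197984 counts, and 3 counts, taken as the limit for a gene at 0, came to between 0.104 and 0.193 CPM (counts per 1000000 of the scaled library). Vsir stood at 6.86 ± 0.465 CPM in WT (SD, n = 3) and at 0.0405 ± 0.0702 in Vsir-/- aILC2s (p = 0.1 by a two-sided exact permutation test, which cannot go lower with 3 libraries a side). All 12 ILC2 genes on the marker list were present in both genotypes (3 higher, 6 lower and 3 not past the threshold). Gata3, the defining transcription factor, averaged 1378 CPM in WT against 789.7 CPM in the mutant, and the least abundant, Thy1, was at 20.3 and 5.55 CPM. All 13166 genes that passed a filter on low counts were tested with edgeR's quasi-likelihood test at a Benjamini-Hochberg adjusted p of 0.05. Of these, 38.9% passed, 18.9% upward and 20.1% downward in the mutant, and 49.4% had no overlap of CPM between genotypes, 23.6% with the Vsir-/- libraries higher and 25.8% with them lower.

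Upstream sequence is shown for the 3 genes of the axis that lay past the threshold, so that a reader can see what precedes each start site. RefSeq, on GRCm38.p6, had an entry for 7 of the 9 genes. The 250 bases before each start were searched on both strands for a SMAD box (CAGAC), an AP-1 site (TGANTCA), a FOXO site (TGTTTAC) and an Sp1 GC box (GGGCGG), none of which overlap in the windows shown. Capitals mark the matches. For Itgb8 only 30 bases around its match are given, at chr12:119238455-119238484 on the minus strand, because GENCODE M21 starts the transcript further upstream and all 250 bases lie in its first exon. The windows of Tgfbr2 (chr9:116175364-116175613) and Smad3 (chr9:63757995-63758244), both on the minus strand, lie outside GENCODE exons of those genes.
Itgb8: tgcccgcgagtgCAGACaggagcttctagg
Tgfbr2: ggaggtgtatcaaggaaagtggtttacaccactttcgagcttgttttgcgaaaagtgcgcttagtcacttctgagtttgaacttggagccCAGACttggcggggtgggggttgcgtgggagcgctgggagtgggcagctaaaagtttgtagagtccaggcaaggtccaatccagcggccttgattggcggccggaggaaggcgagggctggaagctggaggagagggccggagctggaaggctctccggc
Smad3: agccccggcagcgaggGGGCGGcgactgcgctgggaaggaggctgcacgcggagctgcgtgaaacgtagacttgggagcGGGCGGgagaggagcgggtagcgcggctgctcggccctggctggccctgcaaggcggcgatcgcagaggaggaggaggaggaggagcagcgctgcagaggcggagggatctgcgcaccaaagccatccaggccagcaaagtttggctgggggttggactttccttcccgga

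Itgb8 and Tgfbr2 each held 1 SMAD box, which 42.2% of all 32851 such windows contain, and Smad3 held none. Tgfbr1 has 2 RefSeq starts, 1 window with a SMAD box and the other with 2 GC boxes. The GC box was also present 2 times before Smad3, 5 times before Tgfb1 and 5 times before Ski, against 32.7% of all windows with at least 1. No window of the 7 genes held the AP-1 letters, found in 6.75% of windows, or the FOXO letters, found in 3.17%. A match of letters is a description of these windows only.

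Itgb8, which encodes the β chain that pairs with αv alone, was close to absent from WT aILC2s and readily detected in Vsir-/- aILC2s. It lies on chromosome 12 of GRCm38 from 119158022 to 119238802. WT replicates 1, 2 and 3 held 6, 6 and 4 counts of Itgb8, or 0.376, 0.208 and 0.233 CPM. Vsir-/- replicates 1, 2 and 3 held 327, 288 and 229 counts, or 21.01, 17.5 and 14.3 CPM. Every WT value was within a few counts of the detection limit, and the lowest Vsir-/- library lay far above the highest WT library. The means were 0.272 ± 0.0906 and 17.6 ± 3.38 CPM (SD, n = 3 per genotype), a fitted log2 difference of 6.05 with a standard error (SE) of 0.27. In bulk libraries, more cells with a transcript cannot be told apart from more transcript per cell. That difference stayed between 5.52 and 6.29 under all 14 alternative settings. Among the Vsir-/- libraries replicate 3 had the least Itgb8 and replicate 1 the most.

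Itgav, the only α chain that partners β8, did not follow it. On chromosome 2, from 83724397 to 83806916, it stood at 62.6, 49.9 and 84.3 CPM in the WT libraries and at 73.1, 70.8 and 56.3 CPM in the Vsir-/- libraries. The genotypes overlapped throughout, and the fitted log2 difference was 0.03 (95% confidence interval -0.34 to 0.39). An antisense transcript, Gm13684, covers 5.90% of the exons of Itgav and reached at most 1.25 CPM. In GENCODE M21 no other gene of the axis shares exon sequence with another gene.

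**Figure D1:**
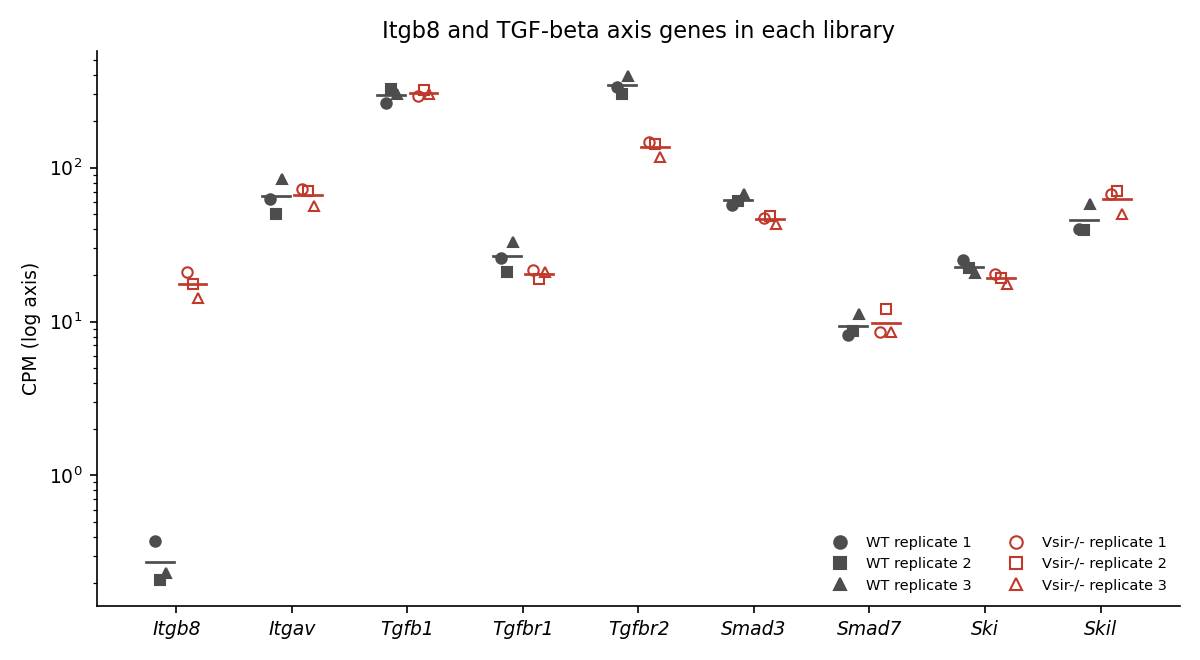
CPM of each gene in each library on a log axis, with WT libraries as filled grey symbols, Vsir-/- libraries as open red symbols and short lines at the means. Itgb8 moves from under 0.4 to over 14 CPM, Tgfbr2 and Smad3 lie lower in all 3 Vsir-/- libraries, and Itgav, Tgfb1 and Smad7 overlap.

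Levels of different genes were compared as CPM per kilobase of exon, with exon lengths from GENCODE M21. WT aILC2s carried 6.10 ± 1.62 CPM per kilobase of Itgav and 0.0246 ± 0.00819 of Itgb8 (SD, n = 3). In Vsir-/- aILC2s Itgav was at 6.21 ± 0.849 and Itgb8 at 1.59 ± 0.305 CPM per kilobase. For every 100 units of Itgav transcript per length there were thus 0.269 to 0.583 units of Itgb8 in WT and 24.0 to 27.9 units in Vsir-/- libraries. The ratio differed less among Vsir-/- libraries than the Itgb8 level itself did, since replicate 3 was low in both chains.

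The other β chains that can pair with αv fell or did not pass the test. Itgb3, the β3 chain, which also binds latent TGF-β, measured 626, 675 and 557 CPM in WT and 118, 129 and 100.02 CPM in Vsir-/- replicates 1, 2 and 3. No Vsir-/- library came near a WT library, and Itgb3 fell by 2.42 on the log2 scale (SE 0.12, edgeR adjusted p = 2.45e-07). Itgb1, which pairs with many α chains, was at 117 ± 8.65 CPM in WT and 115 ± 6.503 in Vsir-/- aILC2s, with a log2 difference of -0.03 (edgeR adjusted p = 0.849). Itgb5 was scarce in both genotypes, at 3.01 ± 0.228 and 3.04 ± 0.462 CPM (edgeR adjusted p = 0.959). Itgb6 was not analysed here.

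Summed per length, Itgb1, Itgb3, Itgb5 and Itgb8 came to 134 ± 7.90 CPM per kilobase in WT and 50.1 ± 4.26 in Vsir-/- aILC2s (SD, n = 3). Itgb3 made up 75.0% to 80.8% of that sum in the WT genotype, against 37.4% to 40.8% where Vsir was deleted. The share of Itgb8 was 0.0133% to 0.0251% in WT and 2.84% to 3.69% in Vsir-/- libraries. Itgb8 therefore remained a minor β chain transcript in Vsir-/- aILC2s, below Itgb1 and Itgb3 and above Itgb5, whose level was 0.857 ± 0.130 CPM per kilobase.

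**Figure D2:**
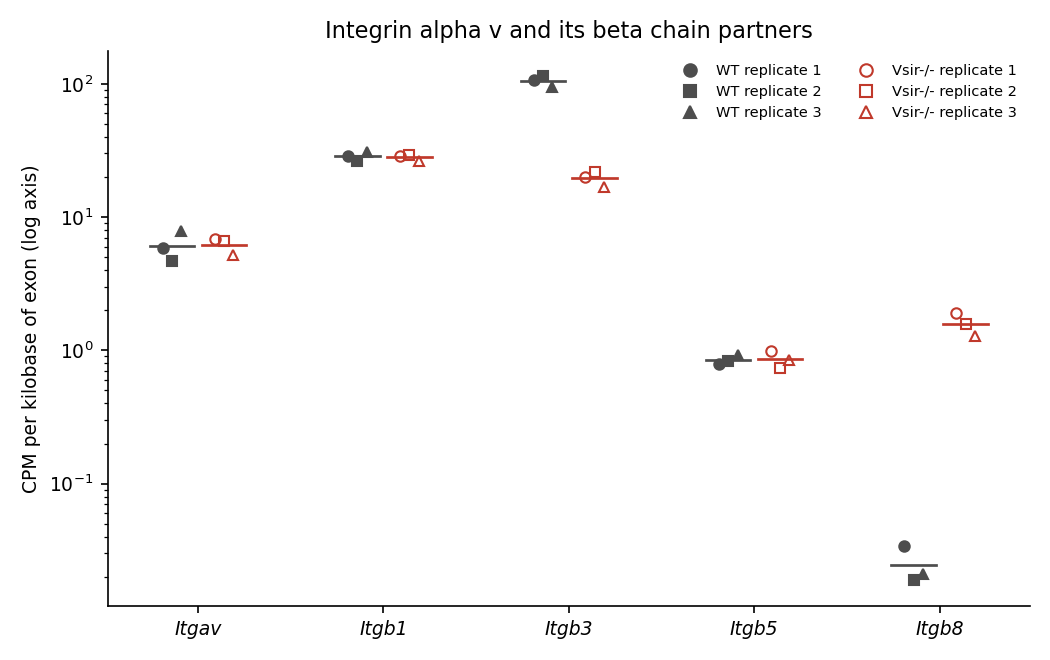
CPM per kilobase of exon for Itgav and 4 β chain genes in each library, on a log axis, with WT as filled grey and Vsir-/- as open red symbols and lines at the means. Itgb3 drops from 105 to 19.6 and Itgb8 rises from 0.0246 to 1.59 CPM per kilobase, while Itgav, Itgb1 and Itgb5 overlap between the genotypes.

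Markers of other cell types, some of which are known to carry αvβ8, were measured in the same libraries. Of 11 epithelial markers 9 were in the table, and their summed level was 27.4 to 30.2 CPM in WT and 8.35 to 10.6 CPM in Vsir-/- libraries, with Epcam the most abundant and Scgb1a1 at 0 in all Vsir-/- libraries and in WT replicate 3. Of 8 dendritic cell markers 5 were in the table, at 84.1 to 99.4 and 52.0 to 62.7 CPM, where Xcr1 led and Itgax was at 1.35 ± 0.364 CPM in WT and 1.49 ± 0.880 in Vsir-/- aILC2s. The dendritic cell genes Zbtb46 (0.317 to 0.787 CPM) and Batf3 (0.0857 to 0.600 CPM) had higher means in Vsir-/- aILC2s and were too low to be tested. Foxp3, which defines regulatory T cells, was at 1.05 ± 0.199 CPM in WT and 0.665 ± 0.0213 in Vsir-/- aILC2s, which did not pass, and the 7 of 10 T cell markers in the table, led by Trbc2, summed to 167 to 200.002 and 81.6 to 104 CPM. Ctla4, a checkpoint receptor on the same list that regulatory T cells carry, was the one T cell marker to rise, from 2.36 ± 0.686 to 9.34 ± 2.47 CPM (edgeR adjusted p = 1.81e-04).
Of 8 fibroblast and smooth muscle markers Pdgfrb and Acta2 were in the table, together 3.12 to 4.195 CPM in WT and 1.58 to 3.86 CPM in Vsir-/- libraries. The summed levels that were higher in every Vsir-/- library were those of mast cell and basophil markers (2 of 4 in the table, 1.69 to 2.74 against 2.95 to 5.73 CPM, where Mcpt8 rose from 0.812 to 4.31 CPM and Cpa3 fell from 1.25 to 0.0214 CPM) and of the endothelial list, of which only Pecam1 was in the table (35.6 to 41.1 against 48.3 to 53.8 CPM). The part of these cells in the level of Itgb8 was not tested.

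Tgfb1, the main TGF-β ligand of leukocytes, was among the more abundant genes of the axis and differed little. It lies on chromosome 7 from 25687002 to 25705077. The WT libraries held 262, 323 and 301 CPM and the Vsir-/- libraries 294, 320 and 299.7 CPM. The Vsir-/- values lay inside the range of the WT values, with a log2 difference of 0.04 (95% confidence interval -0.16 to 0.25). Tgfb3, a second ligand that αvβ8 can release, fell from 18.3 ± 1.69 to 13.5 ± 1.28 CPM (SD, n = 3; log2 difference -0.44, edgeR adjusted p = 0.0200). Its call was lost without WT replicate 3 (edgeR adjusted p = 0.0566), Vsir-/- replicate 1 (0.0701) or Vsir-/- replicate 3 (0.0516). Per length, Tgfb1 exceeded Tgfb3 by 10.1 to 11.9 times in WT and 14.4 to 15.9 times in Vsir-/- libraries.

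The receptors differed from one another. Tgfbr2, the type II receptor that binds the ligand, stood at 333, 302 and 395 CPM in WT replicates 1, 2 and 3 and at 147, 142 and 117 CPM in Vsir-/- replicates 1, 2 and 3. The 2 genotypes were well separated, and the highest Vsir-/- library held under 0.5 times the CPM of the lowest WT library. Tgfbr2, on chromosome 9 from 116084293 to 116175360, had means of 343 ± 47.1 and 136 ± 15.8 CPM and a log2 difference of -1.34 with a SE of 0.12. Tgfbr1, the type I receptor kinase, on chromosome 4 from 47353222 to 47414931, was at 25.8, 20.99 and 33.1 CPM in WT against 21.6, 18.8 and 21.04 CPM in Vsir-/- libraries. Here the genotypes overlapped, through WT replicate 2, and the log2 difference was -0.37 with a SE of 0.16. It was -0.52 without WT replicate 2, where it lay past the threshold, and -0.19 without WT replicate 3, where it did not. Per length, the transcript of Tgfbr2 exceeded that of Tgfbr1 by 9.53 to 11.5 times in WT and by 4.46 to 6.05 times in Vsir-/- libraries.

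Among the SMADs, Smad3, which carries the TGF-β signal to the nucleus, was lower in Vsir-/- aILC2s. It lies on chromosome 9 from 63646767 to 63757994 and measured 57.6, 60.7 and 67.3 CPM in WT and 46.8, 48.7 and 43.3 CPM in Vsir-/- libraries. The groups did not overlap, although the gap between them was narrow (log2 difference -0.42, SE 0.10). With WT replicate 1 as the sole WT library, set against the 3 Vsir-/- libraries, the difference shrank to -0.31. Smad7, the feedback inhibitor, on chromosome 18 from 75367529 to 75395935, was low in both genotypes, at 8.14, 8.66 and 11.2 CPM in WT against 8.61, 12.04 and 8.59 CPM in Vsir-/- libraries. These values overlapped, with a log2 difference of 0.06 (95% confidence interval -0.34 to 0.47).

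Ski and Skil, related repressors that bind SMAD complexes, leaned in different directions. Ski, on chromosome 4 from 155154075 to 155222592, was at 25.1, 22.2 and 20.6 CPM in WT against 20.5, 19.3 and 17.5 CPM in Vsir-/- libraries. All Vsir-/- values were below all WT values, yet WT replicate 3 and Vsir-/- replicate 1 were almost equal. The log2 difference of -0.25 (SE 0.12) was not past the threshold. Skil, which TGF-β itself induces in many cells, lies on chromosome 3 from 31095058 to 31122577 and measured 40.3, 39.6 and 58.2 CPM in WT and 67.4, 70.8 and 50.0 CPM in Vsir-/- libraries. WT replicate 3 lay above Vsir-/- replicate 3, so the genotypes overlapped, with a log2 difference of 0.45 (SE 0.17). Without WT replicate 3 it was 0.65 and without Vsir-/- replicate 3 it was 0.61, past the threshold in both cases. Leaving out any of the other libraries lowered it to between 0.35 and 0.40, not past the threshold. With every library kept, the Skil difference was 0.46 under DESeq2, past the threshold. It was also 0.46 under limma voom and with RLE factors, but not past the threshold. The ratio of Skil to Ski per length was 0.920 to 1.62 in WT and 1.64 to 2.11 in Vsir-/- libraries.

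In all, 3 of the 9 genes lay past the threshold, Itgb8 higher and Tgfbr2 and Smad3 lower, against 38.9% of all tested genes. In 4 of the 9, Ski included, the 2 genotypes shared no part of their CPM range, against 49.4% of all tested genes. Nothing is read from these counts, since the genes were chosen with this comparison known. The median log2 difference of the 9 genes was 0.03, and that of all tested genes was -0.01.

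**Figure D3:**
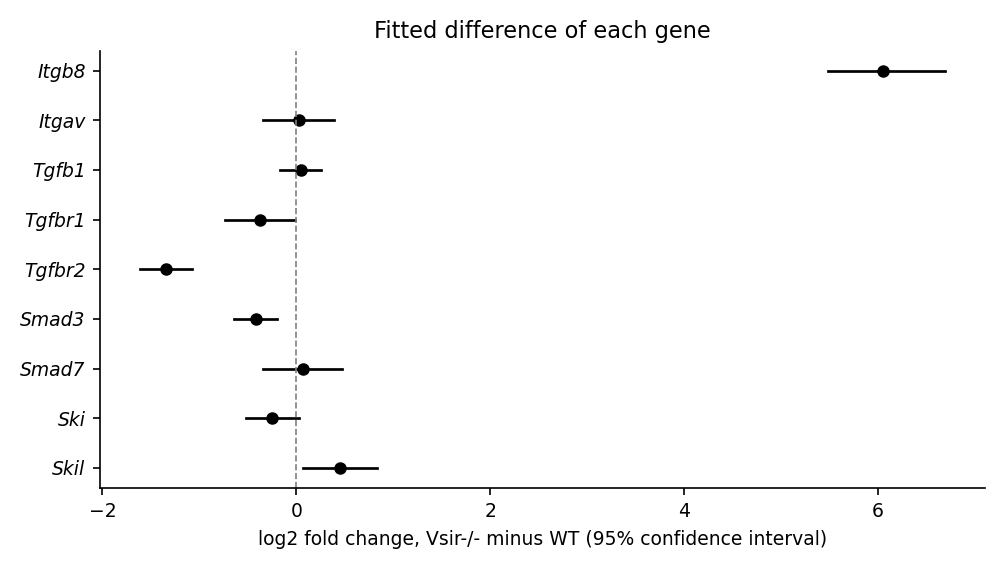
Fitted log2 difference of each gene, Vsir-/- minus WT, with bars for the 95% confidence interval from edgeR. Itgb8 stands at 6.05, Tgfbr2 at -1.34, and the other 7 genes lie between -0.42 and 0.45.

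Ordered by level per length, Tgfb1 (58.6 ± 6.09 CPM per kilobase) and Tgfbr2 (41.9 ± 5.76) led in WT aILC2s, and their ranges did not overlap with each other or with Smad3 (11.2 ± 0.888). Itgav (6.10 ± 1.62), Skil (4.74 ± 1.09), Tgfbr1 (4.07 ± 0.931) and Ski (4.07 ± 0.410) followed, and neighbours in this order did not differ beyond their spread. Smad7 (2.07 ± 0.367) and Itgb8 (0.0246 ± 0.00819) came last. In Vsir-/- aILC2s the order began with Tgfb1 (60.4 ± 2.75), Tgfbr2 (16.6 ± 1.93) and Smad3 (8.35 ± 0.492), with Skil (6.47 ± 1.15) and Itgav (6.21 ± 0.849) next, and Itgb8 (1.59 ± 0.305) lay just under Smad7 (2.16 ± 0.439).

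Within a genotype the third library stood at one end for most of these genes. WT replicate 3 had the highest CPM of the WT libraries in 6 of the 9 genes, against 37.8% of all tested genes. Vsir-/- replicate 3 had the lowest CPM of its genotype in 7 of the 9 genes, against 35.4%, and the highest in 0 of the 9, against 37.4%. The genes of a library share its RNA and its amplification, so they do not count as independent observations.

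Other genes of the pathway were taken from lists by role, in which 89 of 109 genes were in the table and 78 were tested. Of these 78, 17 were higher, 26 were lower and 35 did not pass. That is 55.1% called, beside 38.9% of all tested genes. The median log2 difference of the 78 was -0.06. The lists were chosen with earlier results of these data known, so nothing is read from these counts. Lists share some genes, and a gene is counted once in these totals. Beside the counts of each list below, the share over all tested genes was 18.9% higher and 20.1% lower.

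Genes listed for storage and activation of latent TGF-β changed in both directions. Of 12 tested, 3 were higher, 4 lower and 5 not past the threshold, with a median of 0.00. The higher genes were Furin, Ltbp1 and Eng, a co-receptor gene that is described with the receptors below. Furin, the convertase that cleaves the TGF-β precursor, was already abundant and rose from 2617, 3262 and 3697 CPM in WT to 9403, 9470 and 7279 CPM in Vsir-/- replicates 1, 2 and 3. Its lowest Vsir-/- value was well above its highest WT value (log2 difference 1.45, SE 0.14, edgeR adjusted p = 2.30e-05). Nrros, whose product tethers latent TGF-β to the surface of myeloid cells, fell from 363, 399.7 and 344 CPM to 115, 129 and 130 CPM (log2 difference -1.57, SE 0.09, edgeR adjusted p = 7.44e-07). In neither gene did the genotypes overlap. Thbs1, the secreted activator thrombospondin 1, fell from 3.87 ± 1.31 to 0.666 ± 0.0422 CPM (edgeR adjusted p = 1.83e-04). Ltbp1, a binding protein that anchors latent TGF-β in matrix, rose from 1.48 ± 0.405 to 3.17 ± 0.682 CPM (edgeR adjusted p = 0.0104). Ltbp3, of the same family, passed narrowly (log2 difference -0.56, edgeR adjusted p = 0.0456) and lost its call without any 1 of the 6 libraries (adjusted p of 0.0509 to 0.170).

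Of the receptors other than those named above, 2 of 9 tested were higher and 3 lower, with a median log2 difference of -0.16. Bmpr2, the type II receptor of bone morphogenetic proteins, rose from 12.5, 15.5 and 14.0 CPM to 39.6, 38.7 and 34.0 CPM (log2 difference 1.41, SE 0.12, edgeR adjusted p = 1.35e-05). Eng, the co-receptor endoglin, rose from 16.5 ± 1.83 to 27.9 ± 4.01 CPM (edgeR adjusted p = 0.00178). The activin receptors Acvr2a and Acvr1b fell, by 0.88 and by 1.12 on the log2 scale (edgeR adjusted p = 6.77e-04 and 0.00505). Bmpr1a, a type I receptor, had a log2 difference of -0.50 (edgeR adjusted p = 0.0441), a call that was lost without WT replicate 3 (0.145), Vsir-/- replicate 2 (0.133) or Vsir-/- replicate 3 (0.149). The type II receptors of the TGF-β, activin and bone morphogenetic protein branches, Tgfbr2, Acvr2a and Bmpr2, thus had log2 differences of -1.34, -0.88 and 1.41.

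Of 5 other tested ligands of the superfamily, 3 were lower, none higher and 2 did not pass (median log2 difference -0.44). These were Tgfb3, Inha, the inhibin α chain (1.01 ± 0.152 to 0.313 ± 0.0712 CPM, edgeR adjusted p = 0.00646), and Bmp7, at 50.4 ± 1.19 and 40.7 ± 1.42 CPM (edgeR adjusted p = 0.0203). The call of Bmp7 was lost when any library other than WT replicate 3 was left out (WT replicate 1, 0.0615, and 2, 0.0591, and Vsir-/- replicate 1, 0.0531, 2, 0.0506, and 3, 0.0637).

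Of the 4 other SMAD genes tested, Smad2, the partner of SMAD3 in the TGF-β branch, fell from 75.0 ± 4.21 to 54.9 ± 7.13 CPM (log2 difference -0.45, edgeR adjusted p = 0.00840), a change of about the same size as that of Smad3. Smad5, of the bone morphogenetic protein branch, rose from 16.6 ± 0.558 to 27.0 ± 2.71 CPM (log2 difference 0.70, edgeR adjusted p = 9.75e-04). Smad1, of the same branch, was at 30.2 ± 0.686 and 25.2 ± 1.53 CPM and did not pass (edgeR adjusted p = 0.0730). Smad4, the partner common to both branches, spread widely, at 106, 43.7 and 89.1 CPM in WT against 77.5, 32.8 and 72.9 CPM in Vsir-/- replicates 1, 2 and 3. Replicate 2 of each genotype, whose label adds P1, held the low value, and the log2 difference of -0.38 did not pass (edgeR adjusted p = 0.413). The ratio of Smad3 to Smad2 per length overlapped between the genotypes, at 1.31 ± 0.170 in WT and 1.35 ± 0.213 in Vsir-/- libraries.

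Among 12 tested negative regulators of SMAD signalling, 4 were higher, 1 was lower and 7 did not pass, with a median log2 difference of 0.25. Nedd4l, a ubiquitin ligase that targets activated SMAD2 and SMAD3, fell from 53.3, 62.4 and 66.7 CPM to 8.86, 10.3 and 8.71 CPM (log2 difference -2.71, SE 0.13, edgeR adjusted p = 2.45e-07). It was the list's only gene to fall, and its groups lay far apart. Tgif1 and Tgif2, corepressors of SMADs, rose from 4.37 ± 0.385 to 9.84 ± 0.596 CPM and from 4.39 ± 0.860 to 13.8 ± 1.205 CPM (edgeR adjusted p = 1.79e-04 and 4.29e-05). Ldlrad4, which keeps SMADs from the receptor, rose from 9.99 ± 0.374 to 18.7 ± 1.54 CPM (edgeR adjusted p = 2.50e-04), and Strap, a receptor-associated inhibitor, from 179 ± 4.52 to 245 ± 2.52 CPM (edgeR adjusted p = 9.71e-04). Fkbp1a, which binds type I receptors, was the most abundant of the list at 432 ± 22.9 and 457 ± 27.3 CPM (edgeR adjusted p = 0.478).

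Of 10 tested positive regulators and nuclear partners, 1 was higher and 9 did not pass. Zeb2, a zinc finger repressor that binds SMADs, rose from 19.2, 16.7 and 26.3 CPM to 84.6, 82.8 and 49.3 CPM (log2 difference 1.81, SE 0.22, edgeR adjusted p = 1.19e-04). Vsir-/- replicate 3 was again the lowest of its genotype. Usp4, a deubiquitinase of TGFBR1 and the most abundant of the list, was at 222 ± 5.04 and 237 ± 25.1 CPM, and Runx3, a partner of SMADs in lymphocytes, at 93.3 ± 5.98 and 98.2 ± 7.04 CPM (edgeR adjusted p = 0.470 and 0.571).

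Genes that respond to TGF-β moved in both directions. Of 14 tested genes that TGF-β induces in many cell types, 5 were higher, 5 lower and 4 did not pass, with a median log2 difference of -0.02. Gadd45b, a stress and growth arrest gene, rose from 8.11 ± 1.47 to 36.2 ± 3.49 CPM (edgeR adjusted p = 2.61e-06). Junb, an AP-1 subunit with many inducers besides TGF-β, rose from 243 ± 13.9 to 830 ± 88.5 CPM (edgeR adjusted p = 5.22e-07), and Cdkn1a, an inhibitor of the cell cycle, from 289 ± 77.8 to 448 ± 55.5 CPM (edgeR adjusted p = 0.0123). Klf10, the TGF-β-inducible early gene, fell from 77.0 ± 1.90 to 46.9 ± 6.496 CPM (edgeR adjusted p = 5.96e-04). The genes Spsb1, Nedd9, Rgcc and Cdkn2b fell by 0.90, 0.73, 1.28 and 1.64 on the log2 scale (edgeR adjusted p of 1.21e-04 to 0.00248). Pmepa1, an antagonist that TGF-β induces, was uneven at 15.6, 4.68 and 5.24 CPM in WT against 12.3, 7.78 and 33.4 CPM in Vsir-/- libraries (edgeR adjusted p = 0.136, and 0.0200 without WT replicate 1).

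Of 11 tested genes that TGF-β is known to raise in lymphocytes, 2 were higher, 6 lower and 3 did not pass, with a median log2 difference of -0.64. Itgae, the α chain of the residence integrin CD103, fell from 3.57, 2.60 and 2.62 CPM to 1.03, 1.40 and 0.622 CPM (log2 difference -1.51, SE 0.32, edgeR adjusted p = 0.00373). Entpd1 and Nt5e, the ectoenzymes CD39 and CD73, fell from 7.05 ± 1.13 to 1.53 ± 0.666 CPM and from 4.05 ± 0.589 to 1.87 ± 0.235 CPM (edgeR adjusted p = 1.59e-04 and 0.00276). Cxcr6, a chemokine receptor and the most abundant gene of this list, fell from 2141 ± 132 to 1186 ± 143 CPM (edgeR adjusted p = 9.85e-05), and Ccr8 and Cd101 were also lower. The genes that rose were Rgs16, a regulator of G protein signalling (0.632 ± 0.161 to 2.31 ± 0.373 CPM, edgeR adjusted p = 0.00102), and Il9. TGF-β with IL-4 induces Il9 in T cells, and its rise, from 3.30 ± 1.02 to 365 ± 42.4 CPM (log2 difference 6.81), was known before the list was written. Of 7 tested genes that TGF-β lowers in lymphocytes, 2 were higher, 3 lower and 2 did not pass, with a median of -0.09. S1pr1, the receptor for exit from tissue, rose from 25.7 ± 3.91 to 113 ± 5.78 CPM (edgeR adjusted p = 5.22e-07) and Myc had a log2 difference of 1.08, whereas the cytotoxic genes Gzma and Gzmb and the receptor gene Klrg1, whose values were known beforehand, were the 3 that fell.

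**Figure D4:**
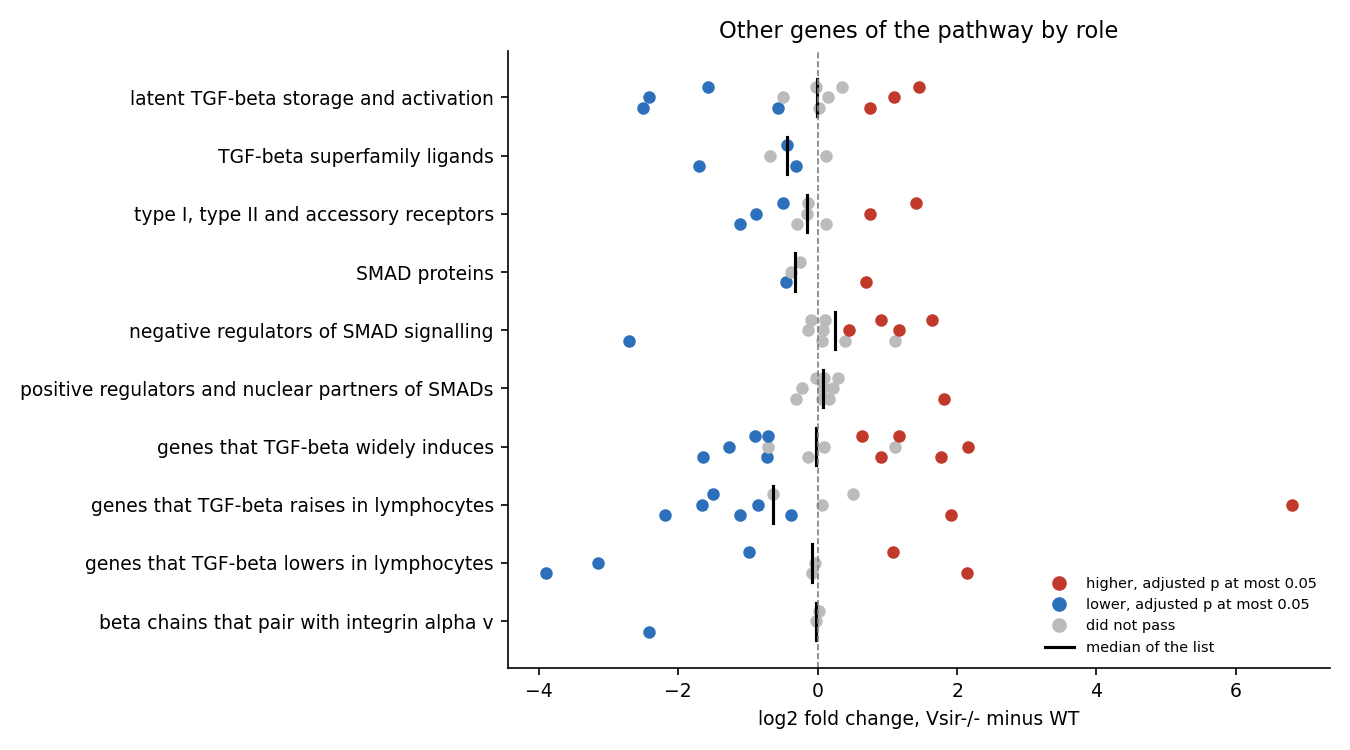
Log2 fold change, Vsir-/- minus WT, of each tested gene by role, without the 9 genes described first, red or blue where the adjusted p was at most 0.05 and grey where it was not, with a black line at each list's median. Genes of the storage and activation list, Eng among them, spread to both sides of 0 (3 higher, 4 lower). Of 11 genes that TGF-β raises in lymphocytes, 6 lie lower and 2 higher. Among all tested genes 20.1% were lower and 18.9% higher.

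The genes whose pattern over the 6 libraries was most like that of Itgb8 were Il33, Csn1s1, Ism1, Gdf6 and Ido1. Likeness was the root mean square difference of log2 CPM, each gene centred on its own mean, and came to 0.41, 0.42, 0.43, 0.52 and 0.56 in that order. Il33, which encodes the alarmin, stood at 0.313, 0.312 and 0.640 CPM in WT against 24.2, 21.4 and 22.3 CPM in Vsir-/- libraries. Gdf6, a ligand of the bone morphogenetic protein branch that was on none of the lists, had 0, 2 and 2 counts in WT and 163, 183 and 120 counts in Vsir-/- libraries, lowest in replicate 3 as Itgb8 was. Csn1s1, a casein gene of milk, held 3, 6 and 4 counts in WT and 262, 207 and 351 in Vsir-/- libraries. All of these genes shared with Itgb8 a WT level at or near the detection limit and presence in every Vsir-/- library. The measure of likeness selects for this, because the large difference between genotypes dominates it.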

How the data were processed

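Estimated counts, 1 value per gene and library, were deposited by the authors, whose processing notes name Partek 10.0, STAR 2.7.8 and mm10. DESeq2 is named without a version, and the annotation, the strand setting and any filter are not given in the sources used here. All 6 sample columns were used. Libraries were made from 10 pg of RNA, so counts are amplified reads and limits at 0 cover counting error only. The counts were not whole numbers and were rounded.

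The software was R 4.3.3 with DESeq2 1.42.0, limma 3.58.1 and edgeR 4.0.16. filterByExpr (min.count 10, min.total.count 15) left 13166 genes, which were scaled by TMM and fitted with genotype as the only term by edgeR's quasi-likelihood test, with Benjamini-Hochberg adjustment over all of them. For each gene the SE was taken as its log2 coefficient, unshrunken, over the square root of F. Log2 CPM for likeness used a prior count of 2. Exon lengths and positions come from GENCODE M21 on GRCm38, the build named by the authors as mm10, where 98 of 98 genes matched by symbol.

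Members and lists were chosen with earlier results of these data known. Genes named were the members, the list genes past the threshold, up to 4 others of each list by CPM, the 5 genes most like Itgb8 and the most abundant markers. Not every gene under this rule is described. Alternatives were DESeq2, RLE factors, limma voom, no filter, a mean of at least 5 CPM, a replicate block, libraries of 1 label number summed, the libraries left once those with label suffix S0 were set aside, and each library left out in turn.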

Additional observations from a re-analysis of the deposited data

How the results depend on the processing

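Across the 14 alternatives 40 to 46 of the other pathway genes were called where each library was left out in turn (43 with all 6 libraries), 41 with the replicate block and 31 from the libraries whose label suffix is not S0 (1 WT against 3 Vsir-/-). There, 2480 of all genes were called in place of 5124, a fit with fewer samples in which the lone WT library is assumed to vary like the others. With the replicate block 4094 genes were called. Over 8567 genes, deviations from the genotype mean gave correlations of -0.0858, 0.201 and -0.449 between libraries of equal number, for replicates 1, 2 and 3. By this measure 1 of 6 libraries was closest to its own number. Deviations within a genotype of 3 libraries constrain one another, so this check cannot decide whether the libraries were paired. With the block Smad4 gained a call, at -0.38 on the log2 scale (edgeR adjusted p = 0.0290), and Bmp7 (0.0725), Bmpr1a (0.0904) and Ltbp3 (0.0634) lost theirs. The axis genes past the threshold numbered 2 to 4 under the alternatives, and no called value changed sign for any axis or pathway gene. Of 1138 settings of single pathway genes, 42 lost a call and 13 gained one. WT Itgb8 rests on 4 to 6 counts a library, so its WT level is the least certain of those given.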

Other observations

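Listed genes too low to be tested include Inhba and Lrrc32, given here as counts in replicates 1, 2 and 3. Inhba, the activin A chain, had 1, 6 and 4 counts in WT and 12, 9 and 25 in Vsir-/- libraries. Lrrc32, which encodes GARP, the carrier of latent TGF-β on regulatory T cells, had 8, 21 and 7 counts in WT and 0, 0 and 3 in Vsir-/- libraries.

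Few genes near Itgb8 were in the table. Of those starting within 1 Mb of it, Sp4, a transcription factor of the Sp family, was lower in Vsir-/- aILC2s (11.1 ± 1.65 to 7.71 ± 1.005 CPM, log2 difference -0.52, edgeR adjusted p = 0.0267), and the predicted genes Gm49602 and Gm9267 did not pass (edgeR adjusted p = 0.188 and 0.851).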
